A study of Mus musculus with 20 samples.

Results

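RNA-seq profiles of 6 cell lines grown from MYC/BCL-2 driven mouse lymphomas were compared with those of 2 BCR-ABL1 preB acute lymphoblastic leukaemia samples (preB-ALL), 8 libraries of the 20 in the series. The members were chosen by their labels alone: every lymphoma library that was a cell line and both leukaemia libraries. The lines were derived from tumours of lethally irradiated mice reconstituted with blood-forming progenitors of genotype *Eµ-Myc*/dCas9a-SAM KI/+ that carried an sgRNA against *Bcl-2*. In these cells the *Eµ-Myc* transgene places *Myc* under the immunoglobulin heavy chain enhancer, which is active in B cells, and a dead Cas9 fused to transcriptional activators raises *Bcl2* from its own promoter. Each line came from a different mouse. The labels class lines 1 to 4 as IgM positive and lines 5 and 6 as IgM negative, numbered here in the order of their libraries. The preB-ALL libraries, P190CreERLSLErg and P190RagCreErg, carry the genotype BCR-ABL1 (p190T/+), and the sources used here do not explain their names further or say whether they came from separate animals. A further 2 IgM-positive primary tumours and 10 libraries of mouse embryonic fibroblasts (MEFs) were used for side by side values only. By their labels the tumours came from the mice of lines 1 and 2. Title and description give the mouse numbers the opposite way round, so tumours were not paired with lines. The MEFs were 2 wild type (WT) libraries and 8 of dCas9-SAM cells, 2 without an sgRNA, 2 with a non-targeting sgRNA and 4 with sgBcl-2, and MEF means are over all 10. None of the samples was treated.

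B cells pass through ordered stages. A pro-B cell recombines its heavy chain genes with the RAG proteins, a pre-B cell displays the new heavy chain with a surrogate light chain as the pre-BCR and grows in response to interleukin-7, and an immature B cell carries IgM with a true light chain before it gains IgD and the mature surface receptors. Interleukin-7 acts through the JAK kinases and STAT5. BCR-ABL1, the fusion kinase of Philadelphia chromosome-positive leukaemia, is known to activate STAT5, RAS-ERK and PI3K signalling without a cytokine, and MYC is known to drive genes for ribosome production, metabolism and growth.

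The sequences that define the engineered event are the 3 *Bcl-2* guides of the study, shown here because *Bcl2* is the activated gene and every lymphoma line carries one of them; the sources do not say which one. They are printed 5′ to 3′, with the guide in lower case and the 3 bases that follow it in the promoter in capitals.
Bcl-2 sgRNA1: gcgggcgggcgctcagaggaGGG
Bcl-2 sgRNA2: caggaaaccaggcgctccggCGG
Bcl-2 sgRNA3: ggagaatgaagtaagaggccGGG
All 3 guides matched the RefSeq promoter window of *Bcl2* (GRCm38.p6, minus strand) and no other window of 32851. They lie on the sense strand, at 160 to 141, 96 to 77 and 75 to 56 bases before the start of the gene. The stretch at chr1:106714341-106714455 holds all of them, with the guides in capitals here.
Bcl2 promoter: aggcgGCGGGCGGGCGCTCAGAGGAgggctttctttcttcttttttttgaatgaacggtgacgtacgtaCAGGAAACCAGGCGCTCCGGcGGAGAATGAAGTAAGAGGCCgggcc

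Both engineered genes were higher in the lymphoma lines than in preB-ALL. *Bcl2*, which encodes the pro-survival target, was at 148, 163, 112, 165, 138.1 and 99.4 CPM (counts-per-million reads on genes) in lines 1 to 6, the order used throughout, against 20.8 in P190CreERLSLErg and 22.0 in P190RagCreErg. The log2 fold change, lines minus preB-ALL, was 3.02 (SE 0.20, adjusted p = 9.89e-06). *Myc* was at 1801, 1553, 1721, 1148, 1711 and 2602 CPM in the lines and at 473 and 221 in the leukaemias (log2 fold change 2.76, SE 0.38, adjusted p = 0.000617). The lowest line stood above the higher preB-ALL library for both genes. Reads from the *Eµ-Myc* transgene and from the normal *Myc* gene were counted together. *Mycn*, the related gene of early progenitors, went the other way, with at most 0.284 CPM in the lines and 3.81 and 20.4 in preB-ALL (log2 fold change -5.70, SE 0.72, adjusted p = 0.000419).

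The comparison separated much of the transcriptome. Of 13328 genes on chromosomes 1 to 19 that passed the low-count filter, 5763 (43.2%) passed the limma test at an adjusted p of 0.05, with 2774 higher (20.8%) and 2989 lower (22.4%) in the lines. Without any scaling factor the higher calls made up 27.6% of all calls in place of 48.1%, with 1597 higher and 4185 lower, and the median log2 fold change over all genes moved from -0.07 to -0.42, so that small rises are given relative to a scaling that assumes most genes did not change. Without P190RagCreErg the count was 2968, and without P190CreERLSLErg it was 4805, with the lone remaining preB-ALL library assumed to vary as the lines do. When libraries were left out, 100 called genes were followed gene by gene. More of them lost the call without P190RagCreErg than without P190CreERLSLErg. Other called genes named here, among them *Jak1*, *Bok*, *Cd55*, *Ctss*, *Mxi1* and *Mga*, were not followed in this way. Those of the 100 that kept the call without either library were the role list genes *Bcl2*, *Cbl*, *Ccne2*, *Cdk6*, *Cish*, *Cr2*, *Csf2rb2*, *Cxcr5*, *Dusp7*, *Egr1*, *Egr3*, *Fbl*, *Ifnar1*, *Ighd*, *Itgal*, *Mapk3*, *Myc*, *Mycn*, *Nop56*, *Pim3*, *Polr1b*, *Runx3*, *Spry4*, *Srm*, *Vav3* and *Vpreb2*, and others of the largest changes named last. The lines held 20083235 to 26678417 reads on genes and the preB-ALL libraries 14970269 and 12474885. RNA kit, medium, sequencing run and tumour type changed together between the groups and cannot be told apart. The lines grew in FMA medium, and the leukaemia cells in IMDM with serum and added interleukin-7.

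Fibroblast marker genes were far higher in preB-ALL than in the lines, and RNA of stromal cells is a possible source that was not tested. The summed level of 14 fibroblast markers was 6759 CPM in P190CreERLSLErg and 2862 in P190RagCreErg, between 6.10 and 89.0 in the lines and between 8712 and 27266 in the MEFs. Fibronectin, *Fn1*, was at 2851 and 1090 CPM in preB-ALL and at most 4.35 in any line, while *Dcn* was at 0 in both preB-ALL libraries. Of the 14 markers, 11 were called lower in the lines. Markers of marrow stroma and endothelium also stood higher, with a sum of 300 to 1242 CPM in preB-ALL against 3.28 to 43.6 in the lines, and *Cxcl12*, *Vcam1* and *Kitl* of that list were called lower in the lines. Summed myeloid markers were low, at 2.34 to 14.1 CPM in the lines and 11.4 to 22.8 in preB-ALL, as were T and NK cell markers at 1.03 to 14.0 and 6.28 to 19.4 and erythroid markers at 0.569 to 2.55 and 4.68 to 6.57. Of 6 tested myeloid markers 4, *Cd14*, *Csf1r*, *Lyz2* and *Cd68*, were called lower in the lines. So were 1 of 3 tested T and NK cell markers and 2 of 3 erythroid ones, and none was higher. For bulk RNA, fewer cells of a type and less RNA per cell cannot be told apart. A gene was therefore marked as high in MEFs when the 10 MEF libraries averaged at least 10 CPM and at least 4 times the lines. Of 1916 tested genes so marked, 1238 were called lower in the lines and 20 higher, a split that the mark itself favours, since it asks for low levels in the lines. Over the 350 genes of 17 role lists, 332 were tested, 49 were higher and 102 lower, and 31 of the 102 were high in MEFs. Members and lists were chosen with earlier results of these data known, so the list shares below are descriptive and no independent evidence.

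The preB-ALL libraries also differed from each other, with higher fibroblast markers in P190CreERLSLErg than in P190RagCreErg. For the 11 fibroblast markers called lower in the lines, the ratio of P190CreERLSLErg to P190RagCreErg was 1.86 to 6.11, with a median of 2.42. For *Cd79a*, *Cd79b*, *Pax5*, *Vpreb1* and *Igll1* it was 0.429 to 0.701, with a median of 0.541 over the 5 genes. These 5 do not stand for all B lineage genes: the ratio was 1.01 for *Ighm*, 1.35 for *Ebf1*, 3.01 for *Rag2* and 7.97 for *Dntt*, and it was above 1 for 4 of 14 tested genes of the pre-BCR and recombination list and for 14 of 32 B lineage transcription factors. The 71 list genes that were lower in the lines and not high in MEFs had a median ratio of 0.648, with 14 above 1. The 31 that were high in MEFs had a median of 0.754 and ranged from 0.297 to 3.79, with 12 above 1. Over all genes tested the median was 0.990.

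**Figure D1:**
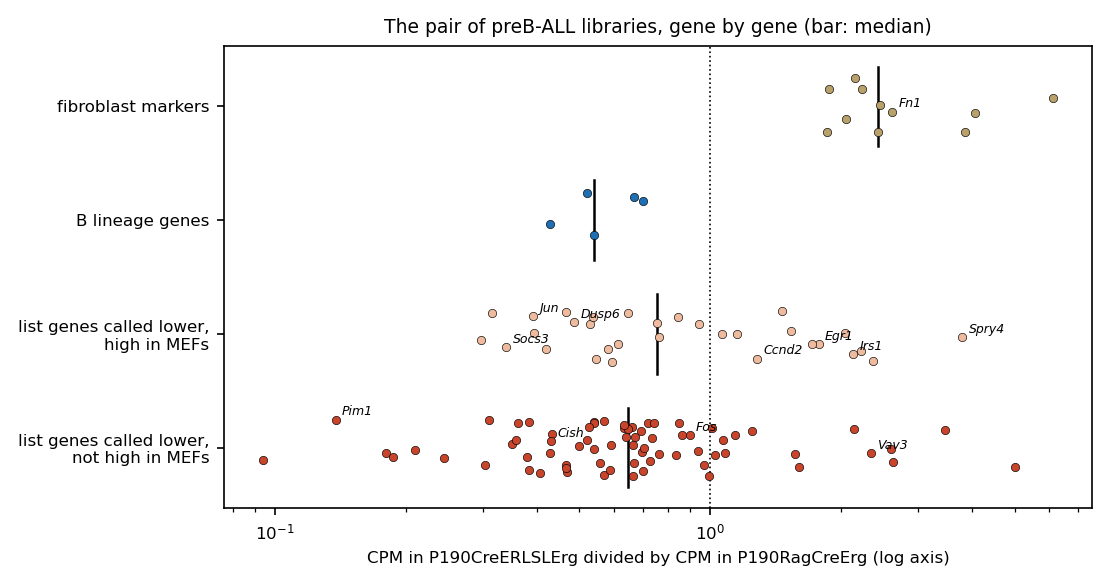
Each point is 1 gene, placed by its CPM in P190CreERLSLErg divided by that in P190RagCreErg on a log axis, with bars at the medians and a dotted line at 1. All 11 fibroblast markers lie above 1 and the 5 chosen B lineage genes (*Cd79a*, *Cd79b*, *Pax5*, *Vpreb1* and *Igll1*) below it, and the genes called lower in the lines spread over both sides with medians of 0.754 (high in MEFs) and 0.648 (not high in MEFs).

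The surrogate light chain genes and *Vpreb3* were lower in the lines than in the leukaemias. Of 14 tested genes of the pre-BCR and recombination list, 4 were lower in the lines (28.6%, against 22.4% of all genes) and none was higher. Both surrogate light chain components fell: *Vpreb1*, its variable-like part, was at 43.2, 195, 120, 210, 2.30 and 14.2 CPM in the lines and at 1102 and 1651 in preB-ALL. All lines lay below both leukaemias. The log2 fold change was -4.57 (SE 1.57, adjusted p = 0.0446), and the call was lost without line 1 (adjusted p = 0.0665), line 6 (0.0738), P190CreERLSLErg (0.161) or P190RagCreErg (0.245). *Vpreb2*, a close copy of *Vpreb1* whose reads may be divided uncertainly between the pair, reached at most 8.02 CPM in a line against 461 and 810 in preB-ALL (log2 fold change -8.88, SE 1.34, adjusted p = 0.0011). *Igll1*, the constant-like part, was at 78.6, 377, 80.2, 225, 8.52 and 46.8 CPM and at 1370 and 1954 in preB-ALL (log2 fold change -4.04, SE 1.18, adjusted p = 0.0236), with the call lost without either preB-ALL library (adjusted p = 0.107 and 0.175). *Vpreb3*, a chaperone-like protein of the early receptor, was at 36.3 to 242 CPM in the lines and at 600 and 1658 in preB-ALL (log2 fold change -2.97, SE 0.75, adjusted p = 0.0126). Within the lines, the IgM-negative lines 5 and 6 held the lowest levels of *Vpreb1*, *Vpreb2* and *Vpreb3*. Fewer of the list, and fewer of all genes, were called with either preB-ALL library left out. In the primary tumours *Vpreb1* was at 13.0 and 0.399 CPM and *Igll1* at 31.3 and 0.499.

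Recombination and progenitor genes varied widely among the lines. *Rag1*, one of the recombinase pair, was at 98.1, 17.3, 9.51, 11.7, 0.430 and 0 CPM in the lines and at 77.8 and 118 in preB-ALL (adjusted p = 0.191). Its partner *Rag2* ran from 29.4 CPM in line 1 to 0 in lines 5 and 6, against 53.4 and 17.7 (adjusted p = 0.114). Against the IgM-negative lines alone both were called lower, with adjusted p = 0.00506 for *Rag1* and 0.00294 for *Rag2*. With the tumours in place of the lines both were called lower as well (adjusted p = 0.000979 and 0.00256). *Rag2* was also called lower by limma-voom (adjusted p = 0.0323) and without line 1 (0.03005). *Dntt*, the enzyme that adds untemplated bases at heavy chain joins, was at 0.203, 0.262, 833, 173, 4.77 and 6.42 CPM, and the leukaemias at 59.4 and 7.46 lay inside that range (adjusted p = 0.827). Lines 3 and 4 were also the ones with *Arpp21* at 77.5 and 128 CPM and *Erg* at 65.9 and 42.8, while lines 1 and 2 had none of either. *Il7r*, the interleukin-7 receptor chain, was high in lines 1 and 2 (142 and 132 CPM) and low in lines 3 and 4 (0.986 and 1.69), and the preB-ALL values were 2.74 and 44.6 (adjusted p = 0.713).

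RNA of B cell receptor subunits was present in every library. Of 8 tested immunoglobulin constant and receptor subunit genes, 4 were lower and 1 higher, where 22.4% and 20.8% of all genes were. *Ighm*, the IgM heavy chain, was at 2711, 2649, 2110 and 1462 CPM in the IgM-positive lines, at 1178 and 1441 in lines 5 and 6 whose label is IgM negative, and at 6213 and 6165 in preB-ALL (log2 fold change -1.39, SE 0.36, adjusted p = 0.0141). The IgM-negative lines thus still held *Ighm* RNA, close to the lowest IgM-positive line. *Ighd*, the IgD constant region, was at 2.89 to 17.7 CPM in the lines and at 197 and 235 in preB-ALL (log2 fold change -4.26, SE 0.61, adjusted p = 0.000816). The signalling subunits *Cd79a* and *Cd79b* were at 325 to 755 and 184 to 350 CPM in the lines, against 1114 and 2059, and 633 and 1477, in preB-ALL (log2 fold changes -1.35 and -1.53, SE 0.34 and 0.32, adjusted p = 0.0121 and 0.00511). *Igkc*, the kappa light chain constant region that follows light chain rearrangement, had the opposite sign. It was at 604, 724, 375, 413, 629 and 175 CPM in the lines and at 32.6 in P190CreERLSLErg but 368 in P190RagCreErg, so the groups overlapped (log2 fold change 2.37, SE 0.83, adjusted p = 0.0465). The *Igkc* call held in only 8 of 23 alternatives, and was lost among others by edgeR (adjusted p = 0.148), without P190CreERLSLErg (0.522) and without any 1 of lines 1 to 5 (0.0667 to 0.0797). Fewer of the 8 genes were called with either preB-ALL library left out, as over all genes. The *Ighm* call was lost without either preB-ALL library (adjusted p = 0.0668 and 0.0716) and against the IgM-positive lines alone (0.0558), and those of *Cd79a* and *Cd79b* without P190RagCreErg (0.145 and 0.0613).

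**Figure D2:**
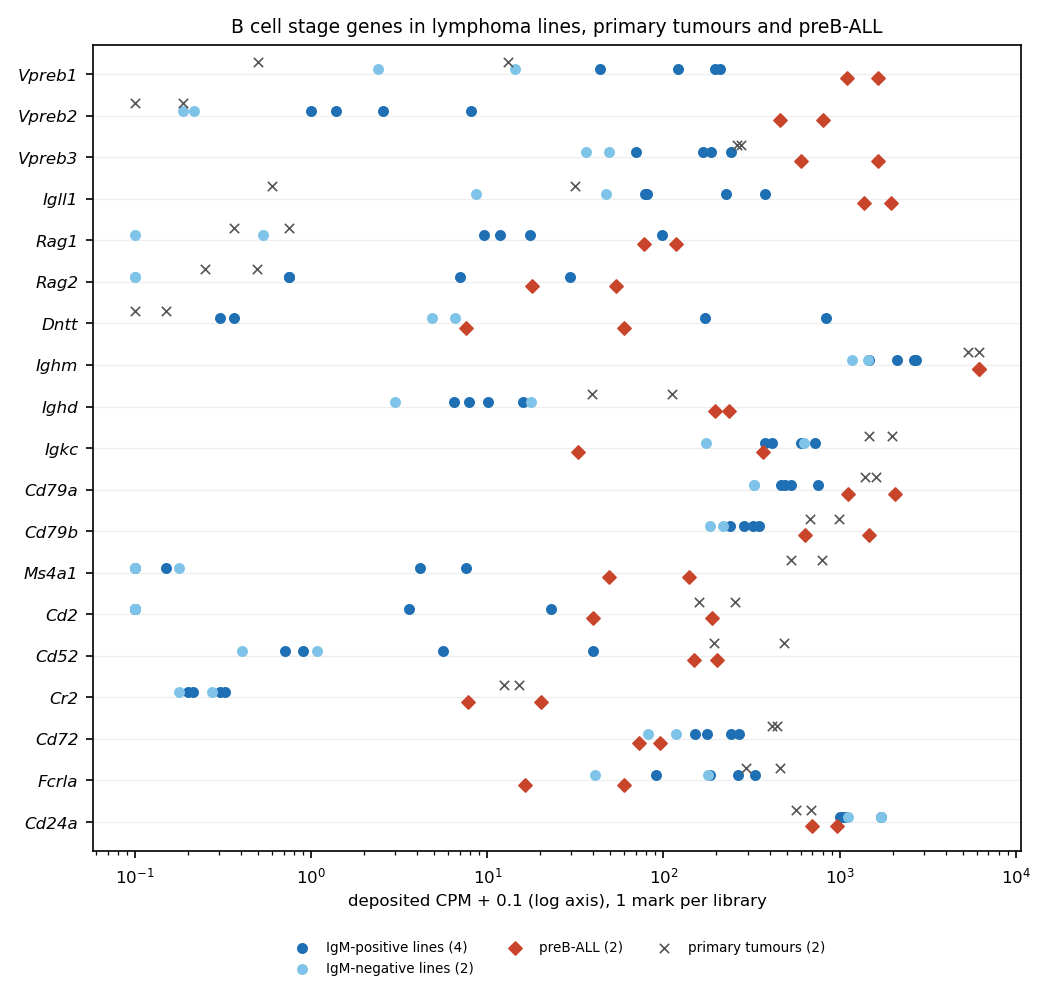
Deposited CPM plus 0.1 on a log axis for 19 genes of B cell stage, 1 mark per library: IgM-positive lines (dark blue), IgM-negative lines (light blue), preB-ALL (red diamonds) and primary tumours (crosses). *Vpreb1*, *Vpreb2* and *Igll1* sit right of every line and tumour in preB-ALL, whereas for *Ms4a1*, *Cd2* and *Cd52* the tumours reach the preB-ALL level or pass it and the lines do not.

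Among surface genes of later B cells, more were lower than higher in the lines. Of 28 tested genes of this list, 12 were lower (42.9%, against 22.4% of all genes) and 3 higher (10.7%, against 20.8%), and 1 of the 12, the complement regulator *Cd55*, was high in MEFs. *Ms4a1*, which encodes CD20, was at 4.06 and 7.46 CPM in lines 1 and 2 and at no more than 0.0781 in the other lines, against 49.2 and 140 in preB-ALL (log2 fold change -7.22, SE 1.85, adjusted p = 0.0138). *Cd2*, an adhesion molecule, showed the same arrangement, with 22.8 and 3.49 CPM in lines 1 and 2, 0 in the other 4 and 39.5 and 188 in preB-ALL (log2 fold change -7.30, SE 2.26, adjusted p = 0.0302). The *Cd2* call was lost by edgeR (adjusted p = 0.14) and without line 3, 4, 5 or 6 (0.0509 to 0.0522). *Cr2*, the complement receptor of mature B cells, was at no more than 0.225 CPM in the lines and at 20.0 and 7.62 in preB-ALL (log2 fold change -5.36, SE 0.47, adjusted p = 4.81e-05). *Cd52*, *Cd37*, *Siglecg* and *Bst1* were lower as well, with log2 fold changes of -6.10, -2.51, -2.22 and -3.53 (adjusted p = 0.0137, 0.0146, 0.00792 and 0.0269), and by edgeR the *Cd52* and *Bst1* calls were lost (adjusted p = 0.058 and 0.0631). *Bst1* also lost its call against the IgM-positive lines alone (0.0643).

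The 3 genes of this list that were higher in the lines were *Fcrla*, *Cd72* and *Cd24a*. *Fcrla*, an intracellular Fc receptor-like protein, was at 264, 332, 90.9, 185, 178.9 and 41.0 CPM in the lines and at 16.2 and 59.4 in preB-ALL (log2 fold change 2.62, SE 0.77, adjusted p = 0.0248). *Cd72*, an inhibitory coreceptor, was at 81.8 to 270 CPM against 72.4 and 94.9, and *Cd24a*, the heat-stable antigen, at 1011 to 1720 against 698 and 963 (log2 fold changes 1.31 and 0.97, adjusted p = 0.0273 and 0.0192). *Cd72* and *Cd24a* kept their sign but lost the call without a scaling factor (adjusted p = 0.103 and 0.109). With either preB-ALL library left out the 3 higher genes lost their calls. Fewer of the list were then lower, as over all genes.

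The comparison of the 2 tumours with the same preB-ALL libraries shares its control samples with that of the lines, so values are set side by side. In the tumours 12 of 30 tested genes of the surface list were higher than in preB-ALL and 3 lower, where 8.70% and 14.8% of all 12967 genes tested were. *Ms4a1* was at 529 and 799 CPM in the tumours (log2 fold change 3.23, adjusted p = 0.00689), *Cd2* at 158 and 255, and *Cd52* at 482 and 194. *Cd79a* at 1603 and 1393 CPM lay within the preB-ALL range. In the pre-BCR and recombination list 9 of 14 genes were lower and 0 higher in the tumours, against the same 14.8% and 8.70%. The tumours are tissue, and their summed myeloid markers were at 35.3 to 43.1 CPM against 2.34 to 14.1 in the lines; the part of other cells in these values was not tested.

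Transcription factors of the B lineage were mixed. Of 32 tested, 6 were lower (18.8%) and 5 higher (15.6%), both below the shares over all genes. *Pax5*, which holds B cell identity, was at 90.6, 125, 50.1, 48.3, 55.2 and 43.1 CPM in the lines and at 194 and 372 in preB-ALL (log2 fold change -1.72, SE 0.40, adjusted p = 0.00952). *Foxo1*, which switches on the RAG genes and *Il7r*, was at 17.6 to 70.1 CPM against 147 and 143 (log2 fold change -1.84, SE 0.44, adjusted p = 0.00989), and *Runx1* at 15.5 to 64.2 against 121 and 173 (log2 fold change -1.78, SE 0.45, adjusted p = 0.0135). *Id3*, an inhibitor of E proteins, was at 28.5 to 96.6 CPM against 176 and 182 (log2 fold change -1.25, SE 0.38, adjusted p = 0.0283). *Runx3* stood on the other side of its relative, at 132, 78.5, 80.6, 42.5, 87.8 and 110 CPM in the lines and 20.9 and 16.6 in preB-ALL (log2 fold change 2.52, SE 0.38, adjusted p = 0.00114). *Ets1*, which restrains plasma cell formation, was at 263 to 621 CPM against 239 and 231 (log2 fold change 1.29, SE 0.30, adjusted p = 0.009). Fewer factors were called in both directions with either preB-ALL library left out, as over all genes.

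*Erg*, an ETS factor of stem cells and early B cells, split the lines. It was at 65.9 and 42.8 CPM in lines 3 and 4, at no more than 0.216 in the other 4 lines, and at 212 and 274 in preB-ALL. No line reached the preB-ALL level, but the spread among the lines kept the test from the threshold (log2 fold change -7.54, SE 2.84, adjusted p = 0.0609). With a pseudocount of 0.5 or 1 CPM, or by limma-voom, *Erg* was called (adjusted p = 0.0465, 0.0396 and 0.00691). Both leukaemia names contain *Erg*, and what this stands for is not given in the sources used here. Of 12 tested germinal centre and plasma cell genes, 4 were lower (33.3%, against 22.4% of all genes) and 0 higher, and 3 of the 4 were high in MEFs. *Xbp1*, the plasma cell and secretory pathway factor, was among these, at 9.86 to 37.1 CPM in the lines, 110 and 201 in preB-ALL and 106 on average in MEFs (log2 fold change -2.32, SE 0.48, adjusted p = 0.00517).

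Several feedback genes of cytokine signalling, namely *Cish*, *Socs2* and *Socs3*, were lower in the lines, while *Socs1*, at 2.25 to 7.87 CPM against 1.80 and 4.73, was not called (adjusted p = 0.122). Of 22 tested genes of the IL-7 receptor and JAK-STAT5 list, 8 were lower (36.4%, against 22.4% of all genes) and 2 higher (9.09%, against 20.8%), and 3 of the 8 were high in MEFs. The leukaemia cells grew with added interleukin-7 and the lines in FMA medium, so medium and tumour type cannot be told apart. *Cish*, an inhibitor that STAT5 is known to induce, was at 0.0811, 0.075, 0.0379, 0, 0.0781 and 0 CPM in the lines and at 54.9 and 127 in preB-ALL (log2 fold change -8.92, SE 0.46, adjusted p = 3.73e-06). *Cish* was near 0 in every line, and in the tumours at 0 and 0.199 CPM. *Socs2*, another STAT5-induced inhibitor, was at 101, 46.3, 36.8, 21.6, 137 and 228 CPM against 360 and 936 (log2 fold change -2.69, SE 0.87, adjusted p = 0.0354). The *Socs2* call was lost without line 2 (adjusted p = 0.0554), line 3 (0.0595) or either preB-ALL library (0.0805 and 0.286). *Pim1*, a survival kinase induced by STAT5, was at 70.9, 24.1, 44.2, 29.1, 27.0 and 39.7 CPM in the lines and at 149 and 1083 in preB-ALL (log2 fold change -3.10, SE 0.67, adjusted p = 0.00657). Without P190RagCreErg, where *Pim1* was far higher, the log2 fold change was -1.77 (adjusted p = 0.074), and against the IgM-negative lines alone the adjusted p was 0.0546. Its relative *Pim3* had the opposite sign, at 63.4 to 108 CPM against 36.3 and 32.2 (log2 fold change 1.58, SE 0.26, adjusted p = 0.00161).

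Of the JAK kinases in the list, *Jak1* and *Jak3* were called lower and *Jak2* and *Tyk2* were not called, and of its STATs only *Stat5b* was called. *Jak1* was at 91.3 to 161 CPM in the lines and at 372 and 238 in preB-ALL. *Jak3*, the kinase bound to the common gamma chain, was at 15.6 to 28.6 CPM in the lines and 52.3 and 60.8 in preB-ALL (log2 fold change -1.14, SE 0.27, adjusted p = 0.00936). *Stat5b* was at 90.9 to 166 CPM against 104 and 90.5, with the groups overlapping (log2 fold change 0.80, SE 0.24, adjusted p = 0.0261), and its call was lost without a scaling factor (adjusted p = 0.126). *Stat5a* at 43.0 to 67.8 CPM against 51.0 and 50.8 was not called. Among the members high in MEFs, *Bcl2l1*, which encodes the survival protein BCL-XL, was at 10.5, 19.7, 1.97, 3.93, 12.2 and 6.77 CPM in the lines, 82.5 and 177 in preB-ALL and 116 on average in MEFs (log2 fold change -3.69, SE 0.78, adjusted p = 0.00587). *Socs3* was at 0.430 to 4.62 CPM in the lines and at 11.2 and 32.8 in preB-ALL, where both libraries exceeded the MEF mean of 10.6. Fewer of the list were called in both directions with either preB-ALL library left out, as over all genes. *Cish* was called in every alternative that was run.

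The start of *Cish* holds the letters that STAT5 is known to bind. The motif TTCNNNGAA, which reads the same on both strands, had 2 copies in its RefSeq window of 300 bases, and the stretch at chr9:107296619-107296678 (GRCm38.p6, plus strand), which ends 20 bases into the gene, is shown with both copies in capitals. The same motif occurred once in the window of *Csf2rb2*, described with the cytokine receptors, at chr15:78305722-78305781 (minus strand), a stretch that ends at the start of the gene.
Cish start: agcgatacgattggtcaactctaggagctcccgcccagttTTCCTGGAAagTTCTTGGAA
Csf2rb2 promoter: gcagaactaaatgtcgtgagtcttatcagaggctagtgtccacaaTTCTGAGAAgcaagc
The letters are common, being present in 8.30% of all 32851 windows and in at least 1 window of 9.55% of genes. Of 18 genes of the IL-7 receptor and JAK-STAT5 list with a window, *Cish*, *Il7r* and *Socs3* held them. A match describes these letters only.

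Of 39 tested members of the RAS-ERK list, which holds the cascade with its early response and feedback genes, 20 were lower (51.3%, against 22.4% of all genes) and 3 higher (7.69%, against 20.8%), and 14 of the 20 were high in MEFs. The ratio of P190CreERLSLErg to P190RagCreErg was above 1 for 7 of these 14 and below 1 for the other 7. The part of fibroblast RNA in the 14 was not tested. The 6 that were not high in MEFs were *Dusp7*, *Egr2*, *Egr3*, *Fos*, *Fosb* and *Ier2*. *Fos*, the immediate early factor, was at 14.9, 9.18, 1.21, 0.996, 19.1 and 5.39 CPM in the lines and at 180 and 201 in preB-ALL, with 15.2 on average in MEFs (log2 fold change -4.82, SE 1.14, adjusted p = 0.00952). *Dusp7*, an ERK phosphatase, was at 21.8 to 44.2 CPM against 111 and 98.0 (log2 fold change -1.34, SE 0.25, adjusted p = 0.00323). *Egr3* was at no more than 0.324 CPM in the lines and at 14.0 and 2.81 in preB-ALL (log2 fold change -4.69, SE 0.78, adjusted p = 0.00184).

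Of the 14, *Dusp6*, *Egr1* and *Jun* exceeded the MEF mean in both leukaemias and the other 11 did not; over all lists 7 of the 31 lower genes high in MEFs did. *Dusp6*, the ERK phosphatase used as a readout of the pathway, was at 3.04, 8.73, 0.796, 0.747, 0.156 and 0 CPM in the lines, at 173 and 356 in preB-ALL and at 47.9 on average in MEFs (log2 fold change -7.78, SE 1.52, adjusted p = 0.004). *Egr1* was at 0.797 to 12.2 CPM in the lines, 303 and 171 in preB-ALL and 94.0 in MEFs (log2 fold change -5.89, SE 0.87, adjusted p = 0.000992). Its MEF libraries varied widely, with an SD of 94.3 CPM around that mean, and P190RagCreErg lay inside that spread. *Jun* was at 1.74 to 22.7 CPM in the lines, 163 and 416 in preB-ALL and 131 in MEFs (log2 fold change -4.57, SE 0.86, adjusted p = 0.00334). Among the other 11, *Spry4* was at no more than 0.249 CPM in the lines and at 22.2 and 5.85 in preB-ALL, with a MEF mean of 22.2 CPM (log2 fold change -5.68, SE 0.59, adjusted p = 0.000127).

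Core members of the cascade were level or moved by small amounts. *Hras* was at 36.6 to 44.4 CPM in the lines against 33.6 and 27.1 (log2 fold change 0.79, SE 0.17, adjusted p = 0.00669), while *Braf*, *Map2k1* and *Map2k2* were not called. *Mapk3*, which encodes ERK1, was lower at 28.0 to 40.7 CPM against 98.0 and 104, with 193 in MEFs (log2 fold change -1.12, SE 0.19, adjusted p = 0.0021). Fewer members were called in both directions with either preB-ALL library left out, as over all genes. In the fit without genes high in MEFs 7 of 22 tested members were lower and 2 higher, where 2186 and 2054 of all 11412 genes were.

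**Figure D3:**
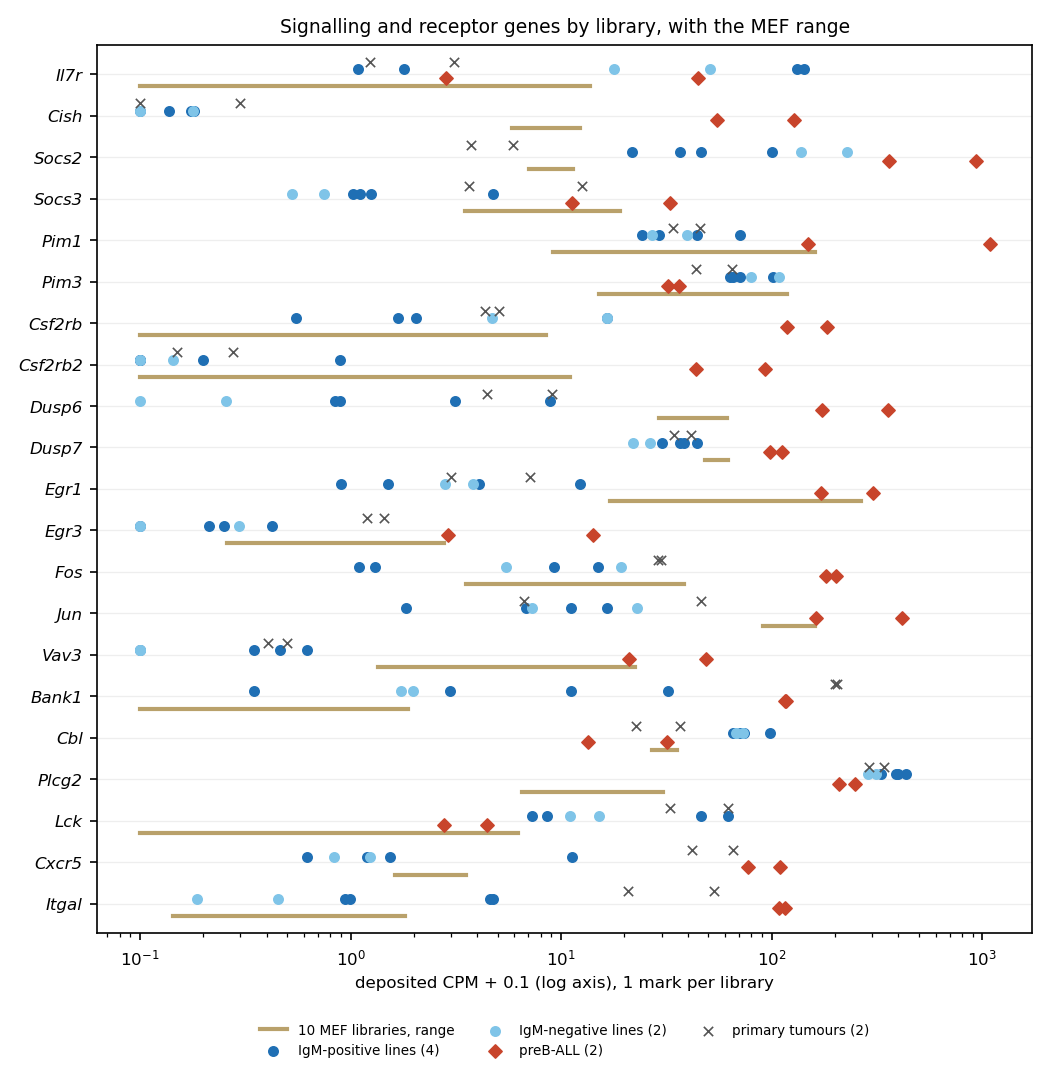
Deposited CPM plus 0.1 on a log axis for 21 signalling and receptor genes, 1 mark per library, with the range of the 10 MEF libraries as a bar. *Dusp6* and *Jun* in preB-ALL lie beyond the upper end of the MEF bar, *Cish* and *Csf2rb2* lie far beyond it, and *Pim3*, *Cbl*, *Plcg2* and *Lck* are right of preB-ALL in every line.

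PI3K pathway genes showed no common direction after scaling. Of 21 tested, 5 were lower (23.8%) and 4 higher (19.0%), close to the shares over all genes. Without a scaling factor 9 were lower and 0 higher, where 4185 and 1597 of all 13328 genes were. *Pik3cd*, the leukocyte catalytic subunit, was at 196, 164, 88.2, 134, 184 and 49.1 CPM in the lines and at 437 and 740 in preB-ALL (log2 fold change -1.85, SE 0.50, adjusted p = 0.0181). The adaptor genes *Irs1* and *Irs2* were at no more than 2.55 and 1.54 CPM in the lines, against 40.9 and 19.2, and 17.2 and 22.8, in preB-ALL, and both were high in MEFs at 72.3 and 15.3 CPM (log2 fold changes -5.98 and -5.53, SE 1.32 and 1.07, adjusted p = 0.00704 and 0.00383). Calls in both directions were fewer with either preB-ALL library left out, as over all genes.

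Among 38 tested genes of proximal B cell receptor signalling, 9 were lower (23.7%, against 22.4% of all genes) and 5 higher (13.2%, against 20.8%), and none of the 9 was high in MEFs. *Vav3*, a guanine exchange factor, was at 0.365, 0.525, 0, 0.249, 0 and 0 CPM in the lines and at 48.7 and 20.8 in preB-ALL (log2 fold change -6.92, SE 0.89, adjusted p = 0.000462), while *Vav1* at 127 to 178.7 CPM against 163 and 256 was not called. *Bank1*, a B cell scaffold protein, was at 32.0, 11.0, 2.88, 0.249, 1.88 and 1.64 CPM against 116 and 117 (log2 fold change -4.79, SE 1.44, adjusted p = 0.027), and it was at 201 and 203 CPM in the tumours. The *Bank1* call was lost by edgeR (adjusted p = 0.0558). *Sh3bp5*, an inhibitor of BTK, was at 36.3 to 61.3 CPM in the IgM-positive lines, at 4.84 and 6.51 in the IgM-negative ones and at 327 and 306 in preB-ALL (log2 fold change -3.38, SE 1.00, adjusted p = 0.025).

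Other receptor-proximal genes were higher in the lines. *Cbl*, a ubiquitin ligase that ends receptor signals, was at 97.7, 73.6, 65.3, 70.5, 67.5 and 72.9 CPM in the lines and at 31.8 and 13.4 in preB-ALL (log2 fold change 2.20, SE 0.31, adjusted p = 0.000776). *Plcg2*, the phospholipase downstream of BTK, was at 285 to 436 CPM against 248 and 208 (log2 fold change 1.00, SE 0.19, adjusted p = 0.00303). *Lck*, a SRC family kinase best known from T cells, was at 7.14, 62.2, 8.49, 45.9, 15.1 and 10.9 CPM against 2.67 and 4.33 (log2 fold change 2.68, SE 0.83, adjusted p = 0.03), and *Cd4*, *Cd8a* and *Cd8b1* were at 0 in all lines. The *Lck* call was lost by limma-voom (adjusted p = 0.178) and without either preB-ALL library. The list had fewer calls in both directions with either preB-ALL library left out, as over all genes. In the tumours 14 of 39 tested genes of the list were higher than in preB-ALL (against 8.70% of all genes) and 4 lower (against 14.8%).

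The list of Toll-like and cytokine receptors, which also holds their adaptors and coreceptors, had 11 of 24 tested genes lower in the lines (45.8%, against 22.4% of all genes) and 1 higher (4.17%, against 20.8%), and 2 of the 11 were high in MEFs. *Cd14* and *Csf1r* of the 11 are also among the myeloid markers, and the part of myeloid cells in them was not tested. *Csf2rb*, the shared beta chain of the IL-3, IL-5 and GM-CSF receptors, was at 1.58, 0.450, 16.3, 1.94, 4.61 and 16.4 CPM in the lines and at 119 and 183 in preB-ALL (log2 fold change -4.97, SE 1.28, adjusted p = 0.014). *Csf2rb2*, the IL-3-specific mouse copy, was at no more than 0.796 CPM in the lines against 43.5 and 93.3 (log2 fold change -8.24, SE 0.88, adjusted p = 0.00015). The pair are close copies, and reads may be divided uncertainly between them. *Ifnar1*, a chain of the type I interferon receptor, was at 26.1 to 53.5 CPM against 93.5 and 141 (log2 fold change -1.40, SE 0.25, adjusted p = 0.00254). *Il6ra* was the exception, at 30.8, 9.00, 27.6, 1.69, 22.5 and 35.5 CPM against 0.935 and 2.08 (log2 fold change 3.66, SE 1.10, adjusted p = 0.0269), with a call lost by limma-voom (adjusted p = 0.203). Fewer receptors were lower with either preB-ALL library left out, as over all genes, and the *Il6ra* call was lost in both cases.

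The NF-kB list had 6 of 18 tested genes lower (33.3%, against 22.4% of all genes), 3 of them high in MEFs, and 3 higher (16.7%, against 20.8%). Without a scaling factor 11 were lower and 1 higher, where 4185 and 1597 of all 13328 genes were. The feedback inhibitor *Nfkbie* was at 2.24 to 11.2 CPM in the lines and 26.8 and 70.5 in preB-ALL (log2 fold change -2.63, SE 0.63, adjusted p = 0.0102), and *Traf3*, which restrains the alternative pathway, was at 97.2 to 268 CPM against 77.6 and 51.9 (log2 fold change 1.57, SE 0.39, adjusted p = 0.0116). Calls of this list fell in both directions with either preB-ALL library left out, as over all genes. Of 17 tested chemokine receptor and homing genes, 6 were lower (35.3%, against 22.4% of all genes) and 3 higher (17.6%, against 20.8%). *Cxcr5*, the receptor for the B cell follicle, was at 1.09, 0.525, 1.44, 11.2, 1.13 and 0.733 CPM in the lines and 77.2 and 109 in preB-ALL (log2 fold change -5.54, SE 0.99, adjusted p = 0.00257). *Itgal*, the alpha chain of LFA-1, was at no more than 4.66 CPM against 108 and 115 (log2 fold change -6.33, SE 1.21, adjusted p = 0.00358). In contrast, the integrin genes *Itga4* and *Itga6* were higher, at 168 to 341 against 159 and 166 CPM, and at 13.8 to 50.5 against 9.02 and 6.73 (log2 fold changes 1.14 and 2.10, SE 0.28 and 0.45, adjusted p = 0.0125 and 0.00637). The homing list also had fewer calls in both directions with either preB-ALL library left out.

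Antigen presentation genes of MHC class II divided the lines into 2 sets. *Cd74*, the invariant chain, was at 435, 808 and 326 CPM in lines 1, 2 and 4, at 0.531, 0.391 and 0.474 in lines 3, 5 and 6, and at 341 and 1248 in preB-ALL. *H2-Aa* followed the same split, with 137.8, 176 and 63.9 CPM in the first set, at most 0.0862 in the second, and 0.802 and 6.49 in preB-ALL. *Ciita*, the master regulator of these genes, was at 40.8, 72.6 and 26.8 CPM in the first set, at most 0.0391 in the second, and 0.134 and 0.481 in preB-ALL, so that the leukaemias held *Cd74* and *H2-Ab1* (106 and 126 CPM) with little *Ciita*. *Cd74* and *H2-Aa* were not called between the groups (adjusted p = 0.265 and 0.798). Of 12 tested genes 2 were lower (16.7%, against 22.4% of all genes), namely *H2-Oa* and *Ctss*, and none was higher. *H2-Oa*, part of a modulator of peptide loading, was at 0.938 to 3.53 CPM against 14.4 and 35.3 (log2 fold change -3.06, SE 0.59, adjusted p = 0.00389), but it lost the call without P190RagCreErg (adjusted p = 0.0619). Fewer of the 12 were called with either preB-ALL library left out, as over all genes.

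In the BCL-2 family, 2 of 14 tested genes were higher (14.3%, against 20.8% of all genes), 3 lower (21.4%, against 22.4%) and 9 not called. The higher ones were *Bcl2* and *Bid*, and the lower ones *Bmf*, *Bcl2l1*, given above, and *Bok*, of which the last 2 were high in MEFs. *Bok* was at 0 to 3.60 CPM in the lines, at 63.7 and 31.3 in preB-ALL and at 21.7 on average in MEFs. With either preB-ALL library left out fewer of the family were lower, as over all genes, while the number higher did not change. *Bmf*, a BH3-only killer protein, was at 8.96 to 30.8 CPM in the lines and 57.4 and 188 in preB-ALL (log2 fold change -2.22, SE 0.55, adjusted p = 0.0118; without P190RagCreErg -1.47, adjusted p = 0.169), and *Bid* at 50.4 to 72.8 against 49.2 and 34.6 (log2 fold change 0.89, SE 0.19, adjusted p = 0.0069). *Mcl1* was at 165 to 227 CPM against 216.2 and 303 and was not called. *Bcl2a1a*, *Bcl2a1b* and *Bcl2a1d*, near-identical genes for A1, were listed at 0 in all 8 libraries and were not tested. Reads of such close copies may be counted uncertainly, so the value of 0 does not show that A1 was absent.

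Most tested MYC target genes were higher in the lines. Of 22 tested genes of the MYC list, 13 were higher (59.1%, against 20.8% of all genes) and *Mycn* alone was lower. The 13 were 10 of its 12 targets, with *Myc*, *Mxi1* and *Mga* of the network itself, where *Max*, *Mxd1*, *Mxd3*, *Mxd4*, *Mnt* and *Mlx* were not called. *Fbl*, a nucleolar methyltransferase, was at 187, 209, 160, 178.8, 198 and 186 CPM in the lines and 49.1 and 29.6 in preB-ALL (log2 fold change 2.64, SE 0.20, adjusted p = 2.25e-05). *Polr1b*, a subunit of RNA polymerase I, was at 169 to 272 CPM against 75.8 and 38.3 (log2 fold change 2.26, SE 0.30, adjusted p = 0.000535). *Odc1* and *Srm*, enzymes of polyamine synthesis, were at 389 to 888 against 251 and 100 CPM, and at 317 to 488 against 192 and 115 (log2 fold changes 2.32 and 1.83, SE 0.42 and 0.25, adjusted p = 0.00282 and 0.000651). *Nop56*, of the ribosomal RNA modification machinery, was at 497 to 634 CPM against 308 and 289 (log2 fold change 1.23, SE 0.17, adjusted p = 0.000591). The count was 12 higher without a scaling factor. It was smaller with either preB-ALL library left out, as over all genes.

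In the cell cycle list 4 of 20 were higher (20.0%) and 5 lower (25.0%), close to the 20.8% and 22.4% of all genes, and 2 of the 5 were high in MEFs. Without a scaling factor 4 were higher and 9 lower, where 1597 and 4185 of all 13328 genes were. The D-type cyclin gene *Ccnd3* was at 171, 342, 84.6, 100.2, 68.1 and 63.6 CPM in the lines and 880 and 1184 in preB-ALL (log2 fold change -2.80, SE 0.57, adjusted p = 0.00464), while its kinase partner *Cdk6* was at 22.8 to 52.1 against 9.62 and 3.53 (log2 fold change 2.91, SE 0.42, adjusted p = 0.000901). *Ccne2*, a cyclin of S phase entry, was at 27.6 to 51.6 CPM against 15.8 and 6.17 (log2 fold change 2.15, SE 0.36, adjusted p = 0.00188). *Cdkn1a*, the p21 gene, was at 1.29 to 16.9 CPM against 48.8 and 124, and at 615 in MEFs (log2 fold change -3.97, SE 0.83, adjusted p = 0.00554). Fewer of the list were lower with either preB-ALL library left out, as over all genes. More were higher without P190CreERLSLErg and fewer without P190RagCreErg. Of 14 genes linked to human double-hit lymphoma, which the study tabulated for these same samples so that their direction is no independent evidence, *Bcl2*, *Myc* and *Ep300* were higher (21.4%, against 20.8% of all genes) and *Ccnd3* and *Id3* lower (14.3%, against 22.4%). *Ep300*, a histone acetyltransferase, was at 119 to 170 CPM against 120 and 116, with the groups overlapping (log2 fold change 0.67, SE 0.14, adjusted p = 0.00507), and its call was lost without a scaling factor (adjusted p = 0.115).

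**Figure D4:**
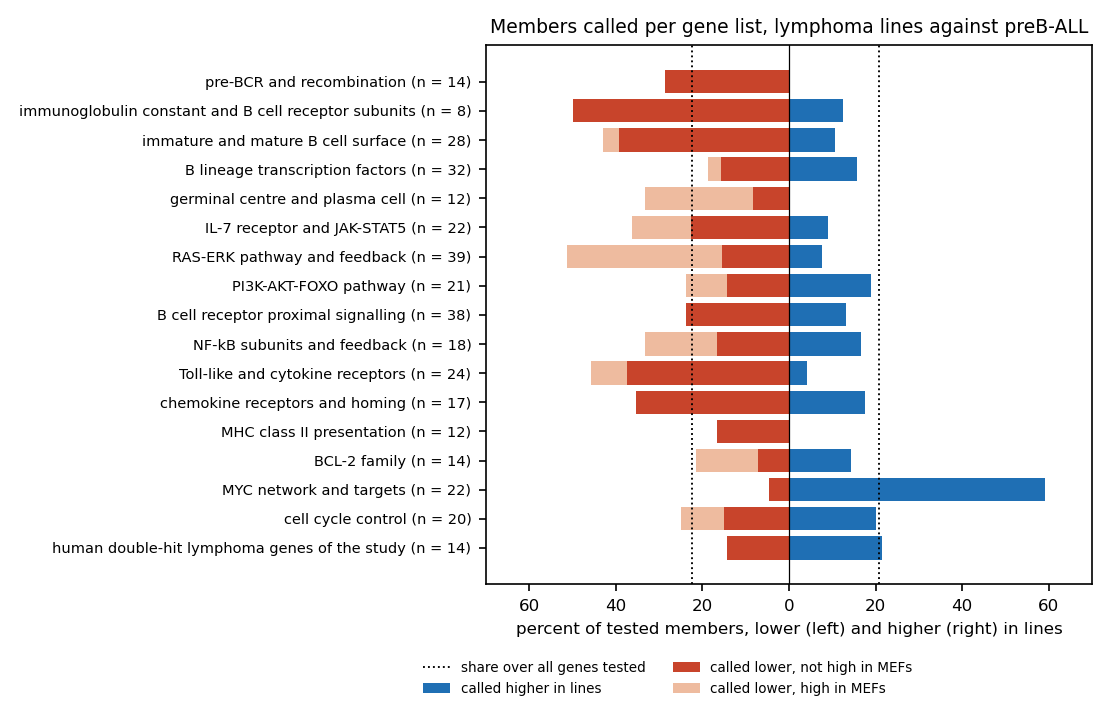
Percent of the tested members of each of the 17 lists that were called higher (right, blue) or lower (left) in the lines, with the lower calls split into genes high in MEFs (pale) and not (red). Dotted lines mark the shares over all genes tested, 20.8% and 22.4%. The lists were chosen with earlier results of these data known. The MYC list reaches 59.1% to the right, and the RAS-ERK list reaches 51.3% to the left, with most of its bar pale.

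The rule for the largest changes (12 genes in each direction, called, without overlap, at least 20 CPM in the higher group and not high in MEFs) gave different kinds of gene in each direction. Lower in the lines were *Crhbp*, *Rnase12*, *Myl10*, *Gldc*, *Prkch*, *Gbp7*, *Cish*, *Vpreb2*, *Car2*, *Angpt1*, *Stat4* and *Gimap4*. *Crhbp*, which encodes a binding protein of corticotropin-releasing hormone, reached 396 and 639 CPM in the leukaemias without a single read in any of the 6 lines, at least 2649-fold lower when each line is set to a floor of 3 reads in the shallowest one. *Angpt1*, a ligand of the TEK receptor, was also at 0 in every line against 92.8 and 26.7 CPM, at least 178.7-fold lower by the same floor. *Prkch*, a member of the protein kinase C family, was at no more than 0.948 CPM against 247 and 125, and *Stat4* at no more than 0.149 against 51.8 and 73.9. *Gimap4*, a lymphocyte GTPase, was at no more than 0.227 CPM in the lines against 80.0 and 74.5, but at 56.5 and 49.1 in the tumours. *Gbp7*, an interferon-inducible GTPase of a family with close copies, was at no more than 1.44 CPM against 225 and 516.

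Of the 12 genes in the other direction, 6 are annotated as protein-coding, namely *Kcnk1*, *Itga9*, *Dlk1*, *Ak4*, *Entpd4b* and the predicted gene *Gm2808*. *Kcnk1*, a potassium channel gene, was at 34.0, 16.3, 137, 119, 59.5 and 111 CPM in the lines and listed at 0 in both preB-ALL libraries, at least 67.6-fold higher over a floor of 3 reads per library. It was at 0.263 and 1.15 CPM in the tumours. *Itga9*, an integrin, was at 47.3, 40.7, 3.34, 20.1, 32.3 and 52.0 CPM against 0.0668 and 0.240 (log2 fold change 6.94, SE 0.98, adjusted p = 0.000736), with the call lost by limma-voom (adjusted p = 0.0972). *Dlk1*, a NOTCH-related membrane protein of fetal tissues, varied from 1.72 to 535 CPM among the lines, and *Ak4*, a mitochondrial adenylate kinase, from 0.117 to 133, and neither call held by limma-voom (adjusted p = 0.43 and 0.384). *Entpd4b* was at 21.1 to 37.6 CPM in the lines, at 0 in preB-ALL and at 37.8 on average in MEFs, and is a near-identical copy of *Entpd4*.

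The remaining 6, *Gm12070*, *Rpl13-ps6*, *Gm8210*, *Gm10045*, *Gm10175* and *Gm13167*, are annotated as pseudogenes, and their values, like that of *Gm2808* (2.31 to 180 CPM in the lines), are uncertain where reads could also match another gene, which was not tested. *Gm12070* was at 921 to 1603 CPM in the lines, 1277 and 1253 in the tumours, 2415 on average in MEFs and only 2.00 and 1.12 in preB-ALL, and *Rpl13-ps6* at 1222 to 1655 against 5.08 and 8.82. Tumours and MEFs thus sided with the lines. Over the whole table, 108 of 192 tested pseudogenes (56.2%) were higher in the lines and 28 lower. Protein-coding genes with a pseudogene of their name were higher in 135 of 293 cases (46.1%), and those without one in 20.0%. In the MYC list *Fbl* and *Ldha* have such a pseudogene, and *Npm1*, *Nop56*, *Odc1*, *Srm*, *Cad*, *Nme1*, *Eif4e* and *Polr1b* do not by this match of names. This pattern moves with the sequencing run, and run and tumour type cannot be told apart.

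**Figure D5:**
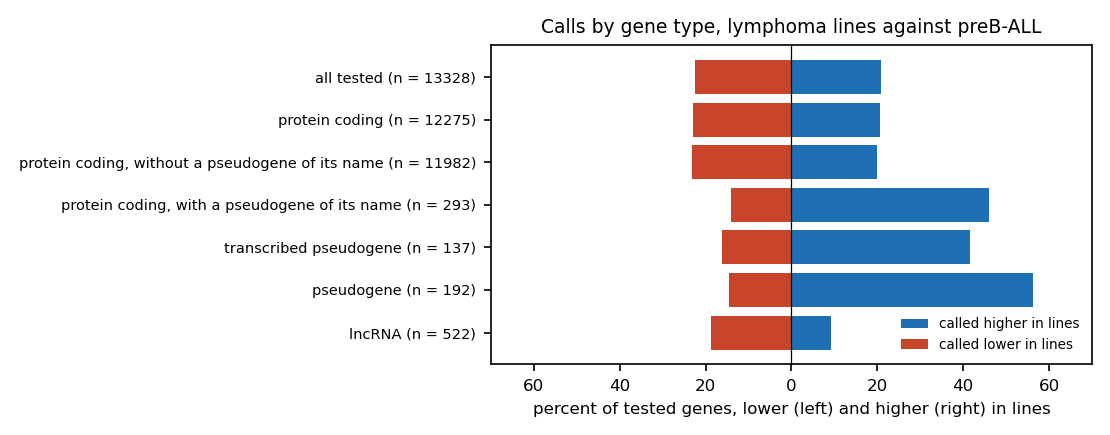
Percent of tested genes called higher (right) or lower (left) in the lines, by gene type, with the number tested in brackets. Pseudogenes (56.2%) and protein-coding genes with a pseudogene of their name (46.1%) were called higher more often than the 20.8% over all genes, and lncRNAs (9.20%) less often.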

How the data were processed

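RNA was sequenced after TruSeq v2 library preparation. The authors aligned reads with Rsubread to GRCm38 (mm10), counted them per Entrez gene and deposited CPM per library; per the labels edgeR was used. Whether counting used the strand is not given in the sources used here, so antisense and overlapping genes are uncertain. All 20 deposited CPM columns were whole multiples of 1 read (100% of values within 0.01), so reads were recovered for count tests. Symbols came from RefSeq (GRCm38.p6) and matched 25242 of 25869 identifiers; 15 mitochondrial genes (5.30 to 7.18% of reads in the lines, 0 in preB-ALL) and 1279 on X and Y were left out. Because the unit was CPM, the main test was limma 3.58.1 (R 4.3.3; lmFit, eBayes with trend, two-sided) on log2(CPM + 0.1) after TMM scaling and filterByExpr from edgeR 4.0.16, with the 6 lines and 2 preB-ALL libraries, no covariate and Benjamini-Hochberg adjusted p under 0.05; fold changes are on that scale and understate low genes. Levels are deposited CPM, not per length, and were not compared between genes. The number of libraries limits precision, with 2 preB-ALL libraries whose origin in separate animals is not stated, so p-values measure the spread between these samples. No pair of libraries was identical.

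Named genes are members of the role lists and, per direction, the 12 largest changes among genes called, without overlap, at 20 CPM or more and not high in MEFs. Members and lists were chosen with earlier results of these data known. The alternatives were edgeR, DESeq2 1.42.0 and limma-voom on recovered reads, RLE or no scaling, pseudocounts of 0.5 and 1 CPM, no filter, X, Y and mitochondrial genes kept, genes high in MEFs removed, thresholds, libraries left out, lines of 1 IgM class, and the tumours in place of the lines. A fit on protein-coding genes only was added after seeing the data. The test was checked on simulated data. A few list members are counted but not reported here by name. Sequences are from RefSeq and the study's guide list, and figures were drawn with matplotlib 3.10.9 in Python 3.11.15.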

Additional observations from a re-analysis of the deposited data

Results flagged for a closer look

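Of 107 named genes checked, 9 had 1 lymphoma line whose gap to its nearest neighbour took an unusually large part of the range of all 6 lines (above Dixon's critical value for 6 samples); chance gives about 1 in 20 groups. Line 3 was low for *Gm2808* at 2.31 CPM (59.1 to 180 in the other lines) and for *Itga9* at 3.34 CPM (20.1 to 52.0), and high for *Csf2rb2* at 0.796 CPM and *Prkch* at 0.948 CPM (at most 0.0996 elsewhere for both). Line 1 was high for *Cbl* at 97.7 CPM (65.3 to 73.6) and for *Mycn* at 0.284 CPM (at most 0.0498). Line 4 was high for *Cxcr5* at 11.2 CPM (0.525 to 1.44) and for *Stat4* at 0.149 CPM (at most 0.0379). Line 2 was the only line with *Myl10*, at 0.0375 CPM. Apart from *Cbl*, *Cxcr5*, *Gm2808* and *Itga9*, these levels are under 1 CPM.

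Mitochondrial genes, which entered no comparison, took a median of 6.58% of the reads in the lines (5.30 to 7.18%) and were listed at 0 in both preB-ALL libraries.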

How the results depend on the processing

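With the same genes tested otherwise, the number called was 5295 by edgeR, 5834 by DESeq2 and 5721 by limma-voom, against 5763. It moved by over 1.5 times without P190RagCreErg (2968; 1237 higher and 1731 lower), with the primary tumours in place of the lines (3045; 1128 and 1917) and at an adjusted p under 0.01 (3596; 1657 and 1939). The higher calls alone moved without a scaling factor (1597), against the IgM-negative lines (1840) and with calls limited to changes of 1 or more on the log2 scale (1602). Leaving out 1 library at a time gave 2968 to 5761 calls, 1237 to 2669 higher and 1731 to 3135 lower; the cause was not tested. With 1 preB-ALL library left, it is assumed to vary as the lines do.

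Of the 100 called genes that were followed gene by gene, 87 kept their sign in every alternative and 33 also their side of the threshold. Without P190CreERLSLErg 29 calls were lost and without P190RagCreErg 54, none with a change of sign. With the tumours in place of the lines, 13 called genes changed sign: *Ighm* (log2 fold change 0.17), *Cd79a* (0.24), *Cd79b* (0.034), *Ms4a1* (3.23), *Cr2* (0.40), *Cd24a* (-0.12), *Cd37* (0.0076), *Cd52* (1.08), *Cd2* (1.48), *Jak3* (0.048), *Bank1* (1.06), *H2-Oa* (0.69) and *Ep300* (-0.13). Of these *Ms4a1* and *Bank1* passed the test there (adjusted p = 0.00689 and 0.0196). Genes not called also changed sign: *Cd74* with the tumours (2.83), *Il7r* with the tumours (-2.27) and without P190CreERLSLErg (-0.94, against 2.91 without P190RagCreErg), *H2-Aa* without P190CreERLSLErg (-0.25, against 2.49) and against the IgM-negative lines (-3.67), and *Dntt* by edgeR (2.68), by DESeq2 (2.57), without line 1 (0.09) and without P190CreERLSLErg (0.61, against -2.48 without P190RagCreErg). No paired analysis was possible because the lines and the preB-ALL samples share no animal, and their replicate numbers only follow the order of the samples. Depth limits genes near 0: 1 read is about 0.04 CPM in a line.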
